A study of Mus musculus with 6 samples.

Results

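Amino acid transporters of the neutral and cationic kinds were examined in RNA of the spinal cord from 3 Sox2 cKO and 3 control (Ctrl) mice. The genes were chosen by name, as protein-coding members of the families Slc7, Slc36, Slc38 and Slc43 without Slc7a11, joined by Slc1a4, Slc1a5, Slc3a1, Slc3a2, Slc6a6, Slc6a15 and Slc6a17. They were 39 of the 35275 genes in the deposited count table, and the 32 with a summed count of 30 or more over the 6 libraries are reported. Of these, 31 passed the filter on low counts and were tested, Slc38a4 being the exception. The other 7, with 0 to 27 summed counts, were Slc3a1, Slc7a9, Slc7a12, Slc7a13, Slc7a15, Slc36a3 and Slc38a8.

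Sox2 cKO mice were mGfap-Cre:Sox2fl/fl, in which Cre recombinase under the mouse Gfap promoter deletes the floxed Sox2 gene in most but not all astrocytes, and both groups were of strain C57BL/6. For Ctrl the labels give mGfap-Cre:Sox2+/+, whereas the study's methods describe littermates with the floxed allele, so it is not certain what the groups share. The age is postnatal day 90 in one label and 80 in another, and the labels give the RNA integrity number as above 6.8 for both groups, where the study's methods state a higher minimum. The table columns carry numbers, and libraries 2, 4 and 6 were taken as Ctrl and 1, 3 and 5 as Sox2 cKO, after the mouse numbers the study uses elsewhere. The group means of normalized counts that the study lists for its groups were then equal, within a relative tolerance of 0.001, to those of these columns for 1999 of 1999 genes, and for 0 with the groups exchanged. Values of single libraries are given in this order, 2, 4 and 6 and then 1, 3 and 5.

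Amino acid transporters move amino acids across the plasma membrane, between blood and brain, between glia and neurons and out of lysosomes. Some are uniporters, some exchange one amino acid for another, and others are driven by sodium or protons. In nervous tissue astrocytes are known to release glutamine through sodium-coupled transporters of the SLC38 family for neurons to take up and turn into glutamate and GABA. Other members supply arginine, leucine or serine, and several on lysosomes pass on the level of amino acids to the kinase mTORC1.

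Sox2, the deleted gene, had 19.9, 14.8 and 29.5 CPM (counts scaled to library size by TMM) in Ctrl and 3.16, 2.69 and 2.98 CPM in Sox2 cKO, a log2 change of -2.86 ± 0.24 (fold change ± standard error, as below, with edgeR's adjusted p = 0.00096). The total count of a library was 21507911 to 28392184, with overlap between groups. Defining markers of neurons, oligodendrocytes and astrocytes were present, among them Chat, the enzyme of motor neurons that makes acetylcholine, with 29.6 to 36.1 CPM. The columns carry no litter, batch or replicate number. Per the study's methods each group held both females and males, and no sex was assigned to the columns. The p-values set each difference between groups against the spread between these libraries, which the fit moderated over all genes tested.

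The study lists genomic sites of high SOX2 enrichment, called in adult cerebral cortex and not in spinal cord, and 2 of the transporter genes are the nearest genes of a site there. These are Slc38a1 and Slc36a4, whose sites are shown because they are the listed sites of the deleted factor nearest to a transporter gene. The capitals mark the match to the study's SOX2 motif, 5′ to 3′ on the plus strand of mm10.
Slc38a1 site: gttttgctgcCAGAGAAAGCGcatttttct
Slc36a4 site: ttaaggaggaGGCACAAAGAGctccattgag
The first lies in chr15:96600373-96600473, inside an intron of Slc38a1 and 42.5 kb downstream of its annotated start. The second lies in chr9:15774985-15775085, where no gene is annotated, 31.6 kb beyond the end of Slc36a4 and 65.3 kb from its start. Only the match near Slc36a4 holds the letters ACAAAG. Slc38a1 fell in Sox2 cKO spinal cord and Slc36a4 was not called, with the values given below.

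Of the 31 transporter genes tested, 9 were lower and 1 was higher in Sox2 cKO at an adjusted p below 0.05 in edgeR's quasi-likelihood test, and 21 were not called. Over all 16137 genes tested, 12.4% were called lower and 12.2% higher. The 9 that fell were Slc43a2, Slc7a14, Slc7a2, Slc38a1, Slc36a1, Slc38a10, Slc6a17, Slc7a5 and Slc1a4, by between 15.6% and 37.4% of the mean Ctrl CPM. The 1 that rose was Slc43a1, one of the least expressed. In 10 lower and 3 higher transporter genes the CPM ranges of the groups were separate, as were those of 22.1% and 22.6% of all genes in these directions. In bulk tissue, fewer cells of a type and less RNA per cell cannot be told apart. The median log2 fold change was -0.19 over the 31 transporter genes and 0.02 over all genes tested.

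**Figure D1:**
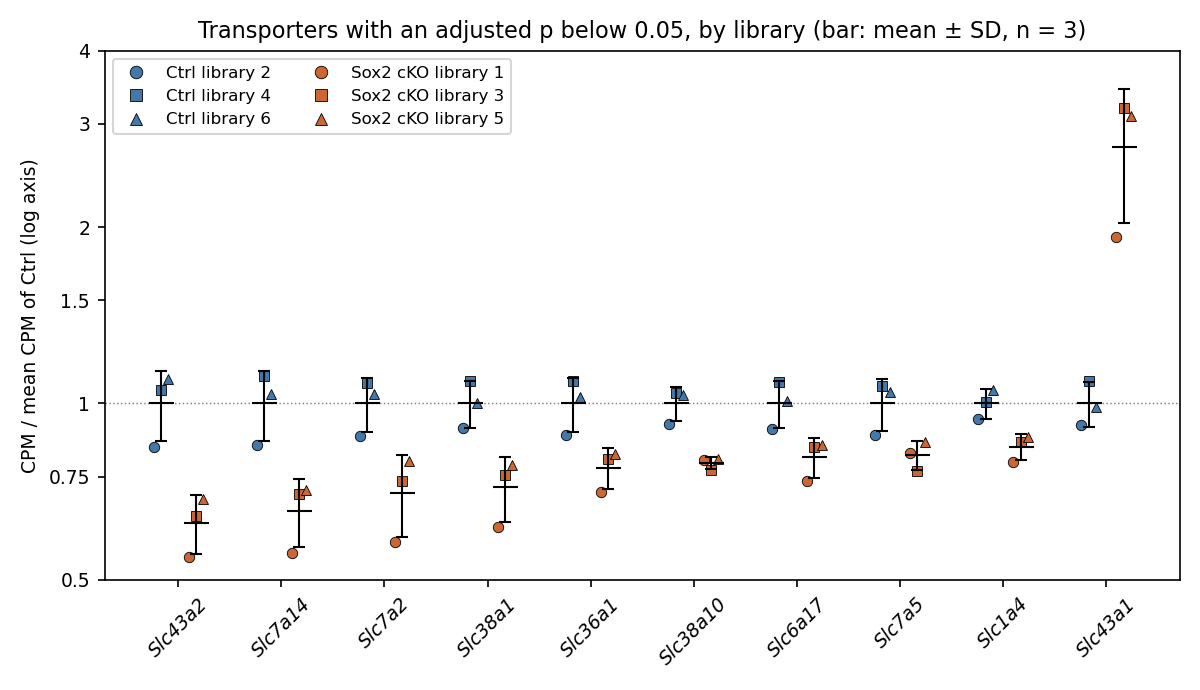
The CPM of each library is plotted for the 10 transporter genes with an adjusted p below 0.05, divided by the mean of the 3 Ctrl libraries, on a log axis; bars give the mean ± SD of each group (n = 3). For 9 genes the 3 Sox2 cKO libraries lie below the 3 Ctrl libraries, and for Slc43a1 they lie above.

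Fold changes in these libraries followed gene length. The genes tested were sorted by length and cut into 5 near-equal groups. In the longest group, from 4872 bases, 36.0% were called lower and 1.74% higher, and the median log2 fold change was -0.25. In the shortest group, up to 1708 bases, 1.73% were called lower and 30.4% higher. The transporter genes tested had a median length of 3926 bases, against 3060 for all genes tested. The longest group held 10 of them, of which 6 were called lower, at a median of -0.33. The group of 3545 to 4869 bases held 8, with 2 called lower and 1 higher, and the group of 2615 to 3544 bases held 8, with 1 called lower. The group of 1709 to 2614 bases held 5, with 0 called, and the shortest group held 0.

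After a correction that removed each library's trend with length, 3 transporter genes remained called lower, Slc43a2, Slc7a14 and Slc38a10, and Slc43a1 remained called higher. In that fit 6.99% of all genes were called lower and 6.08% higher. The median log2 fold change of the transporter genes was then -0.07, against 0.00 for all genes. Values with this correction are given below beside each transporter call as length-corrected.

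**Figure D2:**
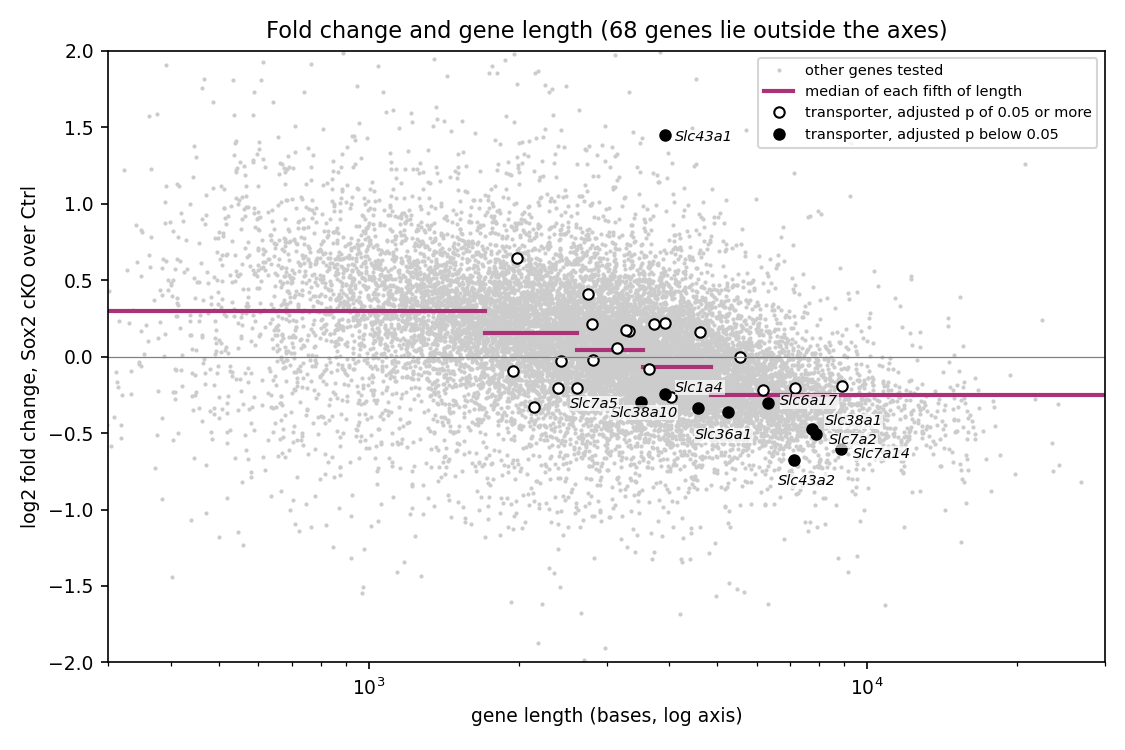
The log2 fold change of Sox2 cKO over Ctrl is plotted against gene length (log axis) for all genes tested, with 68 outside the axes; circles are transporter genes and lines are medians of 5 groups of length. The 9 transporter genes that fell have lengths between 3517 and 8845 bases, and the lines descend from short to long genes.

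The calls also rested on single libraries, over the whole table as well as among the transporter genes. Among the 9 transporter genes that fell, Ctrl library 2 had the lowest Ctrl value for 9 and Sox2 cKO library 1 the lowest Sox2 cKO value for 7. When 1 library was left out of the edgeR fit, the number of transporter genes called was 0 without Ctrl library 4, 0 without Sox2 cKO library 1, 2 without Ctrl library 6 and 3 without Sox2 cKO library 3. It was 7 without Sox2 cKO library 5 and 13 without Ctrl library 2. Over all genes tested, 16339 to 16590 in these fits, the numbers called were 26, 8, 1082, 1359, 2665 and 6119 in the same order. Without Ctrl library 4, 10 transporter genes still had an unadjusted p below 0.05 in edgeR, and DESeq2 called 5. Without Sox2 cKO library 1, 12 had an unadjusted p below 0.05 and DESeq2 called 5. These were the same 5 genes in both DESeq2 fits, Slc7a2, Slc7a14, Slc38a1, Slc38a10 and Slc43a2. Over all genes, 4758 without Ctrl library 4 and 4945 without Sox2 cKO library 1 had an unadjusted p below 0.05 in edgeR. DESeq2 called 1996 and 2342 genes there. With all libraries DESeq2 called the same 10 genes as edgeR, where it called 15.2% of all genes lower and 12.9% higher. Upper quartile scaling ended the edgeR calls of Slc6a17 (adjusted p = 0.0549), Slc7a5 (0.0662) and Slc1a4 (0.0748). With limma on log2(FPKM + 1) these and Slc36a1 were not called, at adjusted p-values of 0.0678 to 0.153, and Slc43a1 was below the filter.

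The summed level of 10 astrocyte markers was 7351 to 8123 CPM in Ctrl and 6203 to 6723 CPM in Sox2 cKO. Of these markers 4 were lower and 1 was higher. The higher one was S100b, with means of 575 CPM in Ctrl and 939 CPM in Sox2 cKO, a log2 change of 0.71 (adjusted p = 0.0229 from edgeR). The 4, Aldh1l1, Aqp4, Slc1a2 and Slc1a3, are genes that the study picked from these libraries, so their direction is not independent evidence. With the length correction 1 astrocyte marker was called lower, Aqp4 (adjusted p = 0.0327 from edgeR), and 0 were called higher. S100b then had an adjusted p of 0.0615 and Slc1a2 of 0.0928. Of 4 markers of oligodendrocyte precursors 3 were lower, among them Pdgfra, which is in the fibroblast list too, with sums of 144 to 166 CPM in Ctrl and 89.3 to 127 CPM in Sox2 cKO. Of 5 neutrophil markers tested 5 were higher, with sums of 11.6 to 18.3 CPM in Ctrl and 66.5, 69.0 and 21.9 CPM in Sox2 cKO, and Elane, a marker of immature neutrophils, was listed at 0.11 to 0.72 CPM and was not tested. S100a8, S100a9 and Ngp stayed called with the length correction, and Camp and Ltf did not. The groups overlapped in S100a8 and Ltf. The sums of the endothelial, pericyte and smooth muscle, fibroblast, neuron, oligodendrocyte, microglia, red blood cell and Schwann cell markers overlapped between groups. In these lists Ly6c1, Kcnj8, Stmn2 and Trem2 were called higher, each in a different list, and Pdgfra lower. Endothelial sums, of the cells in which Slc7a5 is abundant, were 411 to 484 CPM in Ctrl and 404 to 524 CPM in Sox2 cKO. The part of these differences in the transporter values was not tested.

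The mean levels per length, in FPKM (reads scaled to gene length and library total), ran from 0.089 to 64.1. Of the 32 transporter genes, 16 had a mean of 10 FPKM or more and 6 a mean under 1 FPKM. The order began with Slc38a2 at 64.1 FPKM, Slc7a10 at 45.5 FPKM, Slc3a2 at 41.8 FPKM, Slc38a1 at 40.8 FPKM and Slc6a17 at 30.1 FPKM, as means of the 6 libraries. In Ctrl alone Slc38a1 and Slc7a10 were next to each other in the order, with means of 46.1 and 45.5 FPKM, and their ranges (43.1 to 50.2 FPKM and 43.8 to 47.4 FPKM) overlapped, so they did not differ beyond their spread there. In Sox2 cKO Slc38a1, at 31.1 to 37.9 FPKM, lay below Slc7a10, at 45.6 FPKM in each of its 3 libraries. The genes differ in length (7752 and 1949 bases), and FPKM does not take out the trend of fold change with length. With the length correction the log2 changes were -0.18 ± 0.07 for Slc38a1 and -0.27 ± 0.08 for Slc7a10 (adjusted p = 0.114 and 0.0525 from edgeR). Neither was called with it, and whether these genes changed by different amounts was not tested.

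**Figure D3:**
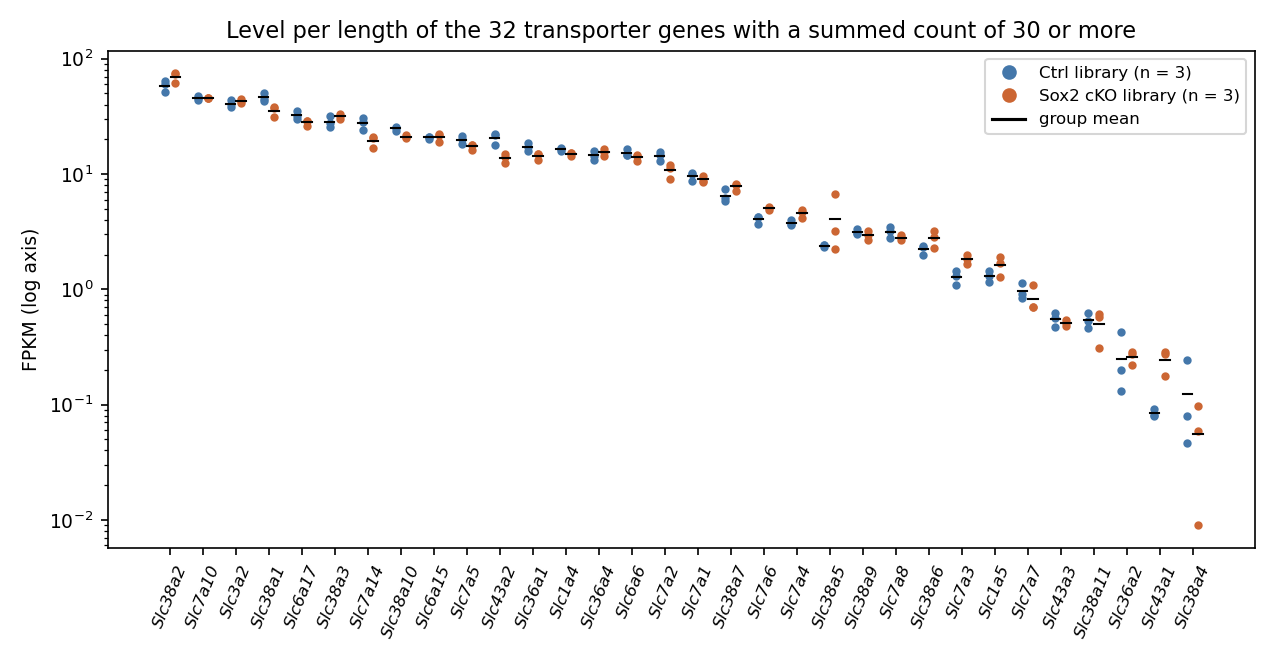
The FPKM of each library is plotted on a log axis for the 32 transporter genes with a summed count of 30 or more, ordered by their mean, with a line at each group mean (n = 3). Slc38a2 is the highest at 64.1 FPKM, and Slc43a1 and Slc38a4 are the lowest.

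Among the sodium-coupled neutral transporters of systems A and N, 4 were tested and 1 was called, Slc38a1. Slc38a1 encodes SNAT1, a system A transporter that takes up glutamine and other small neutral amino acids into neurons (chr15:96571418-96642913, GRCm38). Its level was 336, 404 and 370 CPM in Ctrl and 228, 280 and 291 CPM in Sox2 cKO. The lowest Ctrl library was above the highest Sox2 cKO library. It fell by 28.1%, a log2 change of -0.48 ± 0.11 (adjusted p = 0.0174 from edgeR). The length-corrected value was -0.18 (adjusted p = 0.114), which did not pass, and the edgeR call was also lost without Ctrl library 4 (adjusted p = 0.0803), Ctrl library 6 (0.0502) or Sox2 cKO library 1 (0.0724).

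Slc38a2, which encodes SNAT2, the system A transporter that responds to amino acid starvation, lies 44.5 kb from Slc38a1 on the same chromosome and was not called. It had 281, 306 and 253 CPM in Ctrl and 266, 329 and 341 CPM in Sox2 cKO. The groups overlapped, at a log2 change of 0.16 ± 0.11 (adjusted p = 0.318 from edgeR). The FPKM of Slc38a1 divided by that of Slc38a2, a quantity chosen after the values were seen and free of the scaling between libraries, was 0.714, 0.789 and 0.875 in the Ctrl libraries. It was 0.511, 0.507 and 0.509 in the Sox2 cKO libraries. The ratio is given as a description, with no test. The genes differ in length (7752 and 4626 bases), and the ratio does not take out a trend of fold change with length. With the length correction the log2 changes were -0.18 for Slc38a1 and 0.27 for Slc38a2.

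Slc38a3, the SNAT3 of system N through which astrocytes export glutamine, had 86.1 to 104 CPM in Ctrl and 93.7 to 98.9 CPM in Sox2 cKO, and its log2 fold change of 0.05 ± 0.09 (adjusted p = 0.681 from edgeR) was smaller than its error. Slc38a5, the SNAT5 of the same system, had 4.67 to 5.07 CPM in Ctrl and 12.6, 6.21 and 4.34 CPM in Sox2 cKO. Sox2 cKO library 1 stood apart from the others. The log2 fold change was 0.64 ± 0.32 (adjusted p = 0.166) with all libraries and 0.11 (adjusted p = 0.740) without Sox2 cKO library 1. Without Sox2 cKO library 5 it was called, at 0.93 (adjusted p = 0.0432 from edgeR).

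Of the other SLC38 genes 5 were tested, and Slc38a10 was the 1 called. Slc38a10 encodes a transporter of glutamine, glutamate and other amino acids found in neurons and astrocytes (chr11:120103960-120151346). It had 109, 123 and 122 CPM in Ctrl and 94.3, 90.6 and 94.6 CPM in Sox2 cKO. The Sox2 cKO libraries were close to each other and all below Ctrl. It fell by 20.9%, a log2 change of -0.34 ± 0.08 (adjusted p = 0.0176 from edgeR). The length-corrected value of -0.23 (adjusted p = 0.0440) passed too. The edgeR call held without Ctrl library 2 or Sox2 cKO library 5, and the largest adjusted p without another library was 0.0874, without Ctrl library 4.

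Slc38a9, the arginine sensor on lysosomes that acts on mTORC1, had 27.3 to 31.6 CPM in Ctrl and 22.6 to 27.6 CPM in Sox2 cKO. Its log2 fold change was -0.19 ± 0.10 (adjusted p = 0.193 from edgeR), and with a gene length of 8904 bases it turned to 0.14 when length-corrected (adjusted p = 0.281). Slc38a7, which moves glutamine out of lysosomes, was not called, nor were Slc38a6 and Slc38a11.

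The branch named after cationic amino acids (arginine, lysine and ornithine) had 5 members tested, of which 2 fell and 3 were not called. What each member carries was not measured. Slc7a14, a lysosomal member of this branch, had the largest fall among them (chr3:31202858-31310378). It had 216, 283 and 263 CPM in Ctrl and 141, 178 and 181 CPM in Sox2 cKO, with no overlap. The mean fell by 34.4%, a log2 change of -0.61 ± 0.13 (adjusted p = 0.0137 from edgeR). When length-corrected it was -0.27 (adjusted p = 0.0387) and still called. The edgeR call was lost without Ctrl library 4 (adjusted p = 0.0689) or Sox2 cKO library 1 (0.0665), while DESeq2 called it in 6 of 6 such fits. An annotated gene on the opposite strand, Gm15496, overlaps Slc7a14, and the strand setting of the counting is not stated.

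Slc7a2 encodes CAT2, an arginine transporter that is induced by cytokines and feeds nitric oxide synthesis (chr8:40862396-40922308). It had 103, 127 and 122 CPM in Ctrl and 68.1, 86.4 and 93.6 CPM in Sox2 cKO. Sox2 cKO library 1 was the lowest of all, and the groups did not overlap. It fell by 29.5%, a log2 change of -0.50 ± 0.12 (adjusted p = 0.0198 from edgeR). The length-corrected value of -0.20 (adjusted p = 0.107) was not called. Its edgeR call held without Ctrl library 2 or Sox2 cKO library 5, and without Ctrl library 4 the adjusted p was 0.0883. Without Ctrl library 6 it was 0.0601, without Sox2 cKO library 1 it was 0.0742 and without Sox2 cKO library 3 it was 0.0533.

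Slc7a1, which encodes CAT1, the common carrier of cationic amino acids, had 62.7 to 76.9 CPM in Ctrl and 58.2 to 68.5 CPM in Sox2 cKO. It was not called (log2 fold change -0.20 ± 0.10, adjusted p = 0.156 from edgeR) except without Ctrl library 2 (adjusted p = 0.0185), and when length-corrected it turned to 0.07 (adjusted p = 0.489). Slc7a3, the CAT3 of neurons, had 3.12 to 3.99 CPM in Ctrl and 4.46 to 5.25 CPM in Sox2 cKO. The libraries did not overlap, yet its log2 fold change of 0.41 ± 0.17 did not pass (adjusted p = 0.0994 from edgeR). Slc7a4, whose reads may be shared with P2rx6 on the opposite strand, was not called.

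**Figure D4:**
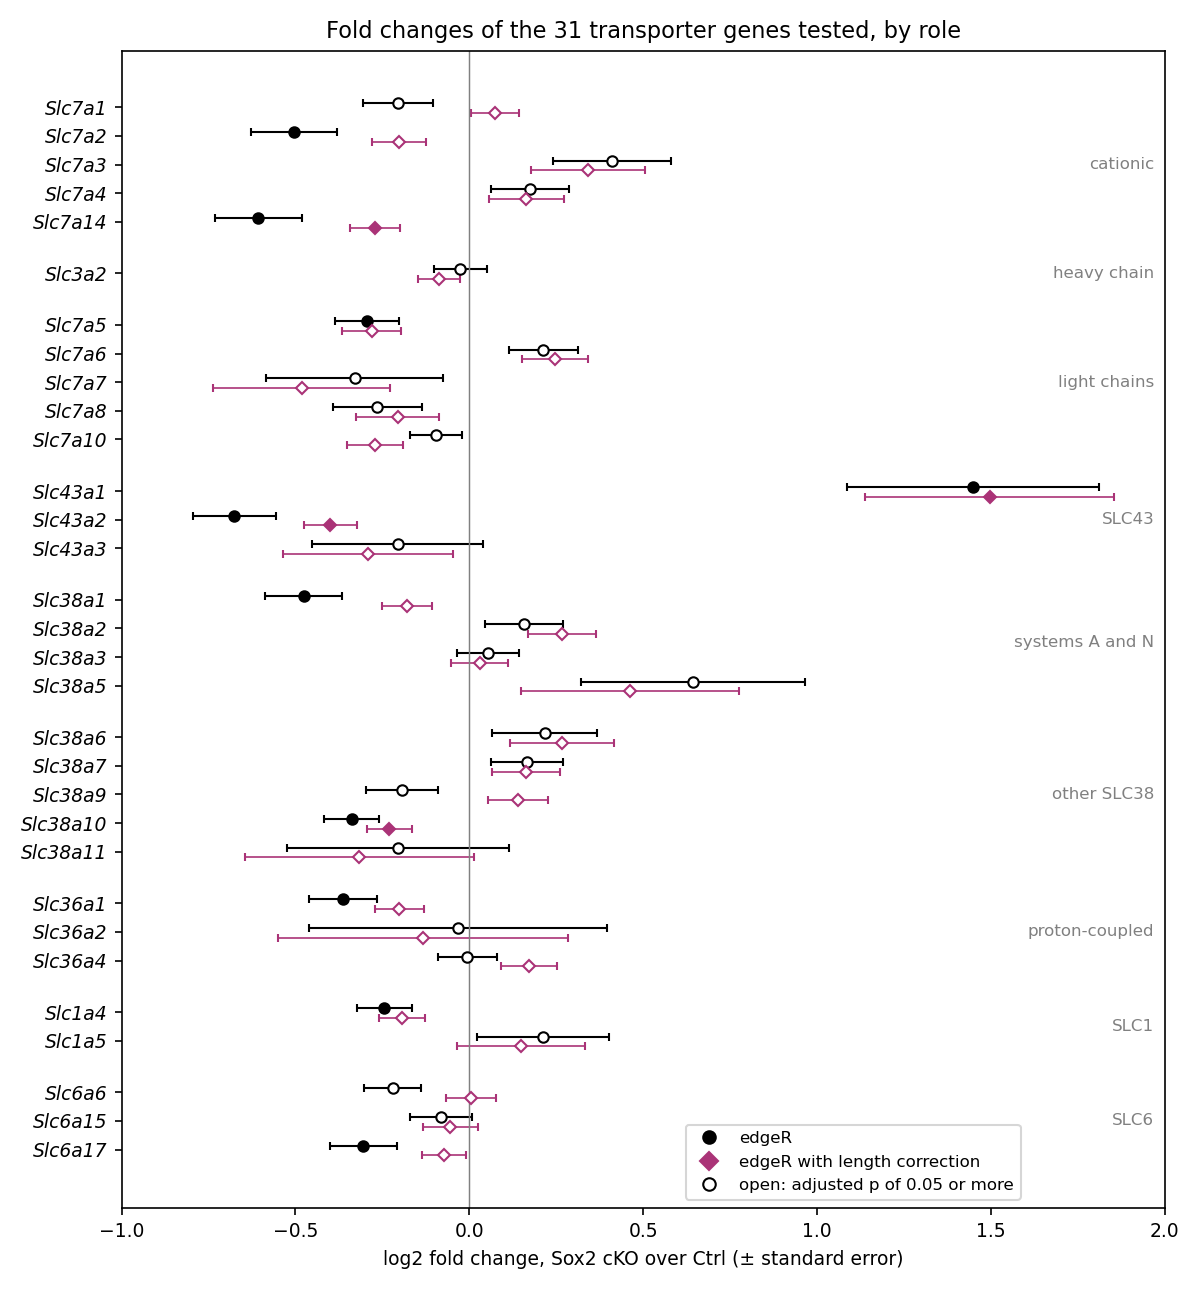
The log2 fold change of Sox2 cKO over Ctrl ± standard error is plotted for the 31 transporter genes tested, grouped by role, from edgeR (circles) and from edgeR with the length correction (diamonds); filled symbols have an adjusted p below 0.05. With the correction, Slc43a2, Slc7a14, Slc38a10 and Slc43a1 stay filled, and the 31 values move to a median of -0.07.

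Heteromeric transporters pair a heavy chain, which brings the complex to the membrane, with a light chain that transports. Slc3a2, the heavy chain CD98hc, had 123, 119 and 113 CPM in Ctrl and 118, 112 and 119 CPM in Sox2 cKO. The groups overlapped, at a log2 change of -0.03 ± 0.08 (adjusted p = 0.825 from edgeR). Of its 5 light chains tested, 1 was called lower and 0 higher.

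That light chain was Slc7a5, or LAT1, which carries leucine and other large neutral amino acids and is abundant at the blood-brain barrier (chr8:121881150-121907694). It had 63.9, 77.7 and 75.7 CPM in Ctrl and 59.6, 55.5 and 62.2 CPM in Sox2 cKO. The gap between the highest Sox2 cKO and the lowest Ctrl library was narrow. The mean fell by 18.5%, a log2 change of -0.29 ± 0.09 (adjusted p = 0.0429 from edgeR). The length-corrected value, -0.28, missed the threshold (adjusted p = 0.0550). In edgeR fits that left out a library it held without Ctrl library 2 alone, and the other adjusted p ranged up to 0.166, without Ctrl library 4.

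Slc7a10, or Asc-1, an exchanger of glycine, alanine and D-serine, had 86.0, 96.1 and 93.4 CPM in Ctrl and 83.9, 86.1 and 87.9 CPM in Sox2 cKO. The groups overlapped narrowly, and the log2 fold change was -0.10 ± 0.07 (adjusted p = 0.365 from edgeR). The gene is short, at 1949 bases, and its length-corrected value was -0.27 (adjusted p = 0.0525). It also overlaps Lrp3 on the opposite strand. Slc7a6, or y+LAT2, which exchanges arginine for glutamine, had 14.3 to 16.8 CPM in Ctrl and 17.9 to 18.6 CPM in Sox2 cKO without overlap, a log2 change of 0.21 ± 0.10 (adjusted p = 0.141 from edgeR). Slc7a8, or LAT2, a carrier of large and small neutral amino acids, had 11.4 to 14.7 CPM in Ctrl and 10.1 to 11.5 CPM in Sox2 cKO, at a log2 change of -0.27 ± 0.13 (adjusted p = 0.151), and was called without Ctrl library 2 (adjusted p = 0.0375 from edgeR). Slc7a7, or y+LAT1, was not called and overlaps Oxa1l.

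In the SLC43 family Slc43a1 and Slc43a2 carry large neutral amino acids by facilitated diffusion, without exchange, and they were called in opposite directions. Slc43a2, or LAT4, had the largest fall of all the transporter genes (chr11:75531694-75577575). It had 128, 160 and 168 CPM in Ctrl and 83.4, 97.7 and 105 CPM in Sox2 cKO. Every Sox2 cKO library was below the lowest Ctrl library. The mean fell by 37.4%, a log2 change of -0.68 ± 0.12 (adjusted p = 0.0125 from edgeR), and the length-corrected value was -0.40 (adjusted p = 0.0194). The edgeR call was lost without Ctrl library 4 (adjusted p = 0.0650) or Sox2 cKO library 1 (0.0656), and DESeq2 called it in 6 of 6 fits that left out a library.

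Slc43a1, or LAT3, was near the bottom of the range, with 7, 9 and 7 raw counts in Ctrl against 15, 32 and 28 in Sox2 cKO (chr2:84838850-84863594). Each Sox2 cKO library was above each Ctrl library. It rose from 0.342 ± 0.030 to 0.936 ± 0.241 CPM (SD, n = 3), a log2 change of 1.45 ± 0.36 (adjusted p = 0.0214 from edgeR), or 1.497 length-corrected (adjusted p = 0.0296). Without Ctrl library 2 it was called (adjusted p = 0.0326), and without any other single library it was not, at adjusted p-values up to 0.0815. Slc43a3, annotated 73.0 kb away and known as a carrier of nucleobases, had 1.30 to 1.70 CPM in Ctrl and 1.23 to 1.40 CPM in Sox2 cKO, and its log2 fold change was -0.21 ± 0.25 (adjusted p = 0.564 from edgeR).

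Of the SLC36 family, named the proton-coupled amino acid transporters although the coupling of each member was not examined here, 3 were tested and 1 was called. Slc36a1, or PAT1, carries amino acids out of lysosomes and acts on mTORC1 (chr11:55204350-55236330). It had 83.0, 103 and 96.5 CPM in Ctrl and 66.3, 75.7 and 77.1 CPM in Sox2 cKO, without overlap. It fell by 22.3%, a log2 change of -0.36 ± 0.10 (adjusted p = 0.0251 from edgeR), while the length-corrected value was -0.20 (adjusted p = 0.0799). Its edgeR call held without Ctrl library 2 or Sox2 cKO library 5, and the largest adjusted p was 0.113, without Ctrl library 4.

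Slc36a4, or PAT4, a carrier of proline and tryptophan and the other gene listed as nearest to a SOX2 site, had 78.7 to 89.0 CPM in Ctrl and 75.8 to 88.0 CPM in Sox2 cKO. Its log2 fold change of -0.01 ± 0.08 (adjusted p = 0.966 from edgeR) corresponds to group means of 83.4 and 83.0 CPM. The sign was positive with the length correction, at 0.17 (adjusted p = 0.165), and with upper quartile scaling, at 0.04. Slc36a2, a carrier of glycine and proline 19.3 kb from Slc36a1, was not called.

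The SLC1 family holds a pair of exchangers of neutral amino acids beside the glutamate transporters. Slc1a4, or ASCT1, exchanges serine, alanine and cysteine and is known as a serine transporter of astrocytes and neurons (chr11:20302180-20332713). It had 62.7, 67.2 and 70.3 CPM in Ctrl and 53.1, 57.4 and 58.5 CPM in Sox2 cKO, so the groups did not overlap. It fell by 15.6%, the smallest of the 9 falls, a log2 change of -0.24 ± 0.08 (adjusted p = 0.0479 from edgeR). The length-corrected value of -0.19 (adjusted p = 0.0785) was not called, nor was the value without a filter on low counts (adjusted p = 0.0736). Of the edgeR fits that left out a library only that without Ctrl library 2 called it, and the largest adjusted p was 0.161, without Ctrl library 6. Slc1a5, the glutamine carrier ASCT2, was not called.

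In the SLC6 family 3 members were tested and 1 was called. Slc6a17, or NTT4, a transporter of neutral amino acids on synaptic vesicles (chr3:107467543-107518018), had 191, 230 and 213 CPM in Ctrl. In Sox2 cKO it had 156, 178 and 179 CPM, all below Ctrl. It fell by 19.1%, a log2 change of -0.30 ± 0.10 (adjusted p = 0.0438 from edgeR). With 6322 bases it is a long gene, and the length-corrected value was -0.07 (adjusted p = 0.459). It was called without Ctrl library 2 and not without any other library, at adjusted p-values up to 0.167. Slc6a6, the taurine transporter, had 90.4 to 105 CPM in Ctrl and 79.1 to 85.3 CPM in Sox2 cKO without overlap, but did not pass (log2 fold change -0.22 ± 0.08, adjusted p = 0.0704 from edgeR), and was 0.01 when length-corrected. Slc6a15, a neuronal carrier of branched-chain amino acids and proline, was not called.

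Promoters of RefSeq on GRCm38.p6, from 250 bases before to 50 after each annotated start, were matched for 26 of the 39 transporter genes. Both strands were searched for ACAAAG, the core bound by SOX factors, and for TGATGNAA, the element to which ATF4 binds when amino acids are scarce. ACAAAG was found in 8 of the 38 promoters of these genes, which belong to 6 of the 26, and in 18.7% of the 32851 promoters of all genes. It was found in 0 of the 7 called genes with a promoter. TGATGNAA was found in 3 of the 38 promoters, which belong to Slc1a4 and Slc7a7, and in 3.97% of all promoters. The Slc1a4 match is shown because Slc1a4 is the called gene that holds it. It lies on the opposite strand, from -4 to 4 around the start, and the capitals mark it in the gene's own direction (chr11:20332704-20332747, minus strand).
Slc1a4 promoter: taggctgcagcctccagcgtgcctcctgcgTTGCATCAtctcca

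Genes that sense amino acids through mTORC1 and the stress kinase GCN2 were read beside the transporters. Of 34 tested, 13 were higher and 8 lower, at a median log2 fold change of 0.13 against 0.02 for all genes, where 24.6% of all genes were called in either direction. Lamtor5, a subunit of the Ragulator scaffold on lysosomes, rose from 40.8, 24.8 and 22.4 CPM in Ctrl to 63.2, 60.6 and 56.7 CPM in Sox2 cKO, a log2 fold change of 1.04 (adjusted p = 0.0126 from edgeR). Lamtor4, another subunit, rose by 0.77 on the log2 scale (adjusted p = 0.0125). Atf4, the transcription factor of the amino acid response, had 70.0, 43.5 and 36.3 CPM in Ctrl and 102, 96.9 and 90.4 CPM in Sox2 cKO. It rose by 0.95 ± 0.19 on the log2 scale (adjusted p = 0.0137 from edgeR). Sesn3, of the leucine-sensing sestrin family, fell by 0.82 on the log2 scale (adjusted p = 0.0127). Without Ctrl library 4 edgeR called 0 of the 34, with 21 at an unadjusted p below 0.05 and 13 called by DESeq2. Without Sox2 cKO library 1 it called 0, with 22 at an unadjusted p below 0.05 and 15 called by DESeq2, Atf4 not among them. It called 8 without Ctrl library 6 and 8 without Sox2 cKO library 3, where DESeq2 called 13, again without Atf4. With the length correction 9 were higher and 1 was lower, and Lamtor5, Lamtor4, Atf4 and Sesn3 were still called.

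Enzymes of amino acid metabolism had 5 higher and 3 lower of 36 tested, at a median log2 fold change of 0.07, a share near the 24.6% of all genes that were called. Among the called enzymes with a mean count of at least 50, those with the largest changes were Bcat2, the mitochondrial branched-chain aminotransferase, Psph, the last enzyme of serine synthesis, Gcsh of the glycine cleavage system and Gamt, which completes creatine synthesis. They rose by 0.60, 0.57, 0.56 and 0.56 on the log2 scale, with adjusted p-values of 0.0370, 0.0152, 0.0163 and 0.0344 in edgeR. The 3 lower enzymes, named after their values were seen, were Nos1, Amt and Srr, whose log2 fold changes were -0.56, -0.50 and -0.30. With the length correction 3 enzymes were higher and 1 was lower. Psph alone of the 4 largest was then called (adjusted p = 0.0255), and the lower one was Amt of the glycine cleavage system, at a log2 fold change of -0.78 (adjusted p = 0.0180 from edgeR). Without Ctrl library 4 edgeR called 0 of the 36, with 10 at an unadjusted p below 0.05 and 4 called by DESeq2. Without Sox2 cKO library 1 it called 0, with 12 at an unadjusted p below 0.05 and 5 called by DESeq2. It called 2 without Ctrl library 6, 2 without Sox2 cKO library 3 and 5 without Sox2 cKO library 5.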

How the data were processed

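Poly(A) RNA of spinal cord was measured in 6 libraries, 3 per group. Per the labels and the study's methods, single-end reads were aligned by the authors with STAR 2.5 (mm10) and counted on genes with HTSeq 0.6.1, and the counts were deposited without normalization. A deposited FPKM table by the authors scales these counts by gene length and library total. A whole gene length, within 0.01 bases, was recovered from both tables for 24442 of 24442 genes with a count. The strand setting of HTSeq is not given in the sources used here. The authors' fold changes and p-values were not used, and 0 columns with values of single samples were left aside.

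The test of the counts was that of edgeR 4.0.16 in R 4.3.3 (filterByExpr, TMM, quasi-likelihood test, no covariate, Benjamini-Hochberg adjustment over 16137 genes, called below 0.05). The biological coefficient of variation was 0.119. Standard errors follow from dividing each fold change by the signed root of its test statistic. CPM were scaled by TMM. The main tool was edgeR, although the study's methods name DESeq2, which was an alternative. The length correction removed a lowess trend with log gene length (span 0.3, prior count 2) from each library. Further alternatives were DESeq2 1.42.0, upper quartile and RLE scaling, other filters (none, or 10 counts in every library), limma 3.58.1 on log2(FPKM + 1) and log2(FPKM + 0.1) at a mean of at least 0.5 FPKM, marker sums without TMM, and 6 fits in edgeR and in DESeq2 that each left out a library. The scripts were tested on simulated data. Gene names and positions came from GENCODE M21 (GRCm38, the build of mm10), which named 34490 of the 35275 genes.

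The members and lists were chosen with earlier results of these data known. Transporter genes with a summed count of at least 30 could be named. Values for every library were given for those called and for the 5 of highest mean FPKM, and ranges for at most 10 others. Values of single libraries for Slc38a4, Slc38a5 and Slc38a8, the last below that minimum, and the 3 lower enzymes were added after their values were seen. From the sensing and enzyme lists the 4 largest changes among called genes with a mean count of at least 50 were named. The lists comprised amino acid sensing, amino acid enzymes and markers of astrocytes, endothelium, pericytes and smooth muscle, fibroblasts, neurons, oligodendrocytes and their precursors, microglia, neutrophils, red blood cells and Schwann cells. One precursor marker was not matched by symbol.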

Additional observations from a re-analysis of the deposited data

How the results depend on the processing

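No paired analysis was possible because the table columns carry no replicate numbers of the labels. The number of transporter genes called, 10 with all libraries, was 4 with the length correction, 5 with limma on log2(FPKM + 1) or log2(FPKM + 0.1), and within 1.5 times of 10 with DESeq2, the other scalings and the other filters. Fits that left out a library gave 0 to 13 in edgeR and 5 to 11 in DESeq2. Over the whole table, where 3970 genes were called, the length correction gave 2109, and leaving out a library gave 8 to 6119 in edgeR and 1996 to 5607 in DESeq2. With limma on log2(FPKM + 1), 915 genes were lower and 2670 higher, so that 25.5% of calls were lower against 50.6% in edgeR, and the median over all genes was 0.09. The sensing list, with 21 called, had 10 with the length correction and 0 to 24 without a library. The enzyme list, with 8, had 4 with the length correction, 13 with limma on log2(FPKM + 1) and 0 to 12 without a library. Without TMM the log2 ratio of the summed markers was -0.14 for astrocytes (-0.24 with TMM), 0.094 for neurons (-0.01) and 0.068 for oligodendrocytes (-0.03).

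Among 593 alternative fold changes of the transporter genes, 485 kept their direction and side of the threshold, 72 lost a call, 7 gained one and 29 turned, none of them in a gene that had been called. Length-corrected values turned for Slc7a1 (0.073), Slc38a9 (0.14), Slc36a4 (0.17) and Slc6a6 (0.0052). With limma on log2(FPKM + 1) and log2(FPKM + 0.1), Slc3a2 became 0.072 and 0.074, Slc7a10 0.0051 and 0.0052, Slc36a4 0.086 and 0.091 and Slc6a15 0.0122 and 0.0125. With upper quartile scaling, Slc3a2 became 0.0195, Slc36a2 0.0105 and Slc36a4 0.0377, and with 10 counts in every library Slc36a4 became 7.4e-05. Over fits that left out a library the fold change ranged from -0.0704 to 0.0026 for Slc3a2, from -0.0104 to 0.15 for Slc38a3 and from -0.41 to 0.0395 for Slc38a11. It ranged from -0.31 to 0.53 for Slc36a2, from -0.0663 to 0.0566 for Slc36a4 and from -0.15 to 0.0036 for Slc6a15. The causes were not tested. DESeq2 gave no adjusted p for some genes of low count when a library was left out, among them Slc43a1 in 5 of 6 fits. With 3 libraries per group, an exact permutation test of 1 gene cannot give p below 0.1, and genes with few counts, such as Slc43a1 and Slc36a2, have wide errors.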

Other observations

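Slc38a8, a neuronal glutamine transporter that stayed below the minimum of 30 summed counts and was singled out after its values were seen, had 5, 6 and 6 counts in Ctrl against 1, 0 and 0 in Sox2 cKO. It did not pass the filter on low counts and has no test. Slc38a4, the system A transporter of liver and likewise chosen after its values were seen, was counted 7, 24 and 4 times in Ctrl and 5, 1 and 10 times in Sox2 cKO, with libraries in the order used above, and was not tested either.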
